A study of Caenorhabditis elegans with 2 samples.

Results

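The promoter regions of 5 chaperone genes of Caenorhabditis elegans were examined in chromatin immunoprecipitation followed by sequencing (ChIP-seq) of the tagged protein SNPC-4. The genes were hsp-1, hsp-70, hsp-3, hsp-4 and hsp-90, which encode proteins of the HSP70 and HSP90 families. They were chosen by name, with earlier results of these data known, as 5 of the 19971 nuclear protein-coding genes of the annotation. Shares over all genes are therefore given beside them as description only. A region was counted for a gene where its summit lay within 500 bp of the annotated 5′ end. The chromatin came from whole larvae of the third larval stage (L3), of pooled sexes, of strain OP179, which carries unc-119(ed3) on chromosome III and the transgene wgIs179, an insertion for eGFP-tagged SNPC-4. The labels give 2 biological replicates of this 1 group, so binding was compared between genes, positions and replicates, and no test between conditions was possible. Both replicates carried the same allele and transgene, whole animals mix all tissues, and the lists hold no expression values with which stage or tissue could be checked. The deposited signal of a region has no stated unit and is on a scale of its own in each replicate list and in the pooled list, whose values the thresholded list repeats, so each value is given with the region's rank in the same list, where rank 1 is the strongest. The thresholded list held 2672 peaks with signals of 29.07 to 2235, and the pooled list and each replicate list held 30000 regions, peaks and background together.

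SNPC-4 is a subunit of the small nuclear RNA activating protein complex (SNAPc), known for binding promoters of small nuclear RNA genes and, in worms, of spliced leader RNA and piRNA genes. HSP70 proteins bind unfolded stretches of other proteins and release them in a cycle of ATP hydrolysis that J-domain cochaperones start and nucleotide exchange factors complete. HSP90 acts later, on nearly folded clients such as kinases and hormone receptors, and cochaperones hand clients from one chaperone to the other. In the worm, hsp-1 encodes the constitutive cytosolic HSP70 and hsp-70 a heat-induced cytosolic one. hsp-3 and hsp-4 encode BiP, the HSP70 of the endoplasmic reticulum (ER), and hsp-4 is widely used as a reporter of the unfolded protein response. hsp-90, also named daf-21, encodes the cytosolic HSP90.

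The sequences under the strongest pooled region of 4 of the genes are shown because the positions of known stress-response motifs relative to the summits are described from them. They are from the RefSeq genome of WBcel235, the assembly that ce11 names, and are written 5′ to 3′ on the strand of the gene. Capitals mark GAANNTTC or TTCNNGAA, the arrangements of a pair of GAA units in the heat shock element, TGACGTG or its reverse complement CACGTCA, the core of the unfolded protein response element known from mammals, and TATAAA. The hsp-1 region is IV:17278441-17278730 on the plus strand, with its summit at base 146. For hsp-3 (X:6092125-6092321, minus strand, summit at base 145) and hsp-4 (II:7352646-7352815, minus strand, summit at base 145) only the bases before the first exon annotated in Ensembl are shown. The hsp-90 region is V:14685706-14685812 on the plus strand, with its summit at base 46.
hsp-1: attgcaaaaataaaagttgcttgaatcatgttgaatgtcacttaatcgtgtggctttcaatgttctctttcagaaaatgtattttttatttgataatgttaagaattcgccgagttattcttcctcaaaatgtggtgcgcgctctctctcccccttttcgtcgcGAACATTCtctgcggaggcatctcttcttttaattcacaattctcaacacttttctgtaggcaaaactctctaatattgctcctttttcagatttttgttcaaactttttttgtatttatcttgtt
hsp-3: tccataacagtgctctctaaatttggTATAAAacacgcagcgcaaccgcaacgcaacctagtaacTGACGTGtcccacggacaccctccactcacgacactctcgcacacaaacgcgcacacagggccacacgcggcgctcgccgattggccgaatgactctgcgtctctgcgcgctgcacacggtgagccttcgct
hsp-4: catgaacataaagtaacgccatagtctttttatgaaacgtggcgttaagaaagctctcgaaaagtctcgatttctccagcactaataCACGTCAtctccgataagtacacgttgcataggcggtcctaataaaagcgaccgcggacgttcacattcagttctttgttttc
hsp-90: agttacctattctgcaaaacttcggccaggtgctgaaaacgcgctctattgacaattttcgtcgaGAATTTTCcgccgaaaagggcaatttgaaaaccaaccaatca

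Tagged SNPC-4 had a thresholded peak at 4 of the 5 genes, hsp-90, hsp-1, hsp-3 and hsp-70, and a pooled region just below the threshold at hsp-4. By the same rule, 8.94% of all protein-coding genes had a thresholded peak (1785 of 19971). All 5 genes had a region in the pooled list, as did 34.8% of protein-coding genes, and all 5 had one in the pooled list and in both replicate lists, as did 20.3%. The strongest region of hsp-90, hsp-1 and hsp-3 also ranked within the first 2672 in each replicate list, which 6.4% of protein-coding genes did. Within 250 bp of the 5′ end, 2 of the 5 genes had a thresholded peak, hsp-70 and hsp-90 (through its weaker peak), as did 5.82% of protein-coding genes. Within 250 bp, hsp-4, hsp-70 and hsp-90 had a pooled region, 3 of the 5 genes against 22.2% of protein-coding genes, and 0 of the 5 ranked within the first 2672 of both replicate lists, against 3.9%. In the stronger 50% of the list, to rank 1336, hsp-90, hsp-1 and hsp-3 had a peak, against 5.25% of protein-coding genes. The first 2672 regions of the replicate 1 list held hsp-1, hsp-3, hsp-4 and hsp-90 (8.61% of protein-coding genes), and those of the replicate 2 list held hsp-1, hsp-3, hsp-70 and hsp-90 (8.83%). Each gene's strongest region lay upstream of its annotated 5′ end, as at 93.5% of the 1785 protein-coding genes with a peak. The map of regions along the genes shows these regions with the weaker regions of the gene bodies and flanks.

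**Figure D1:**
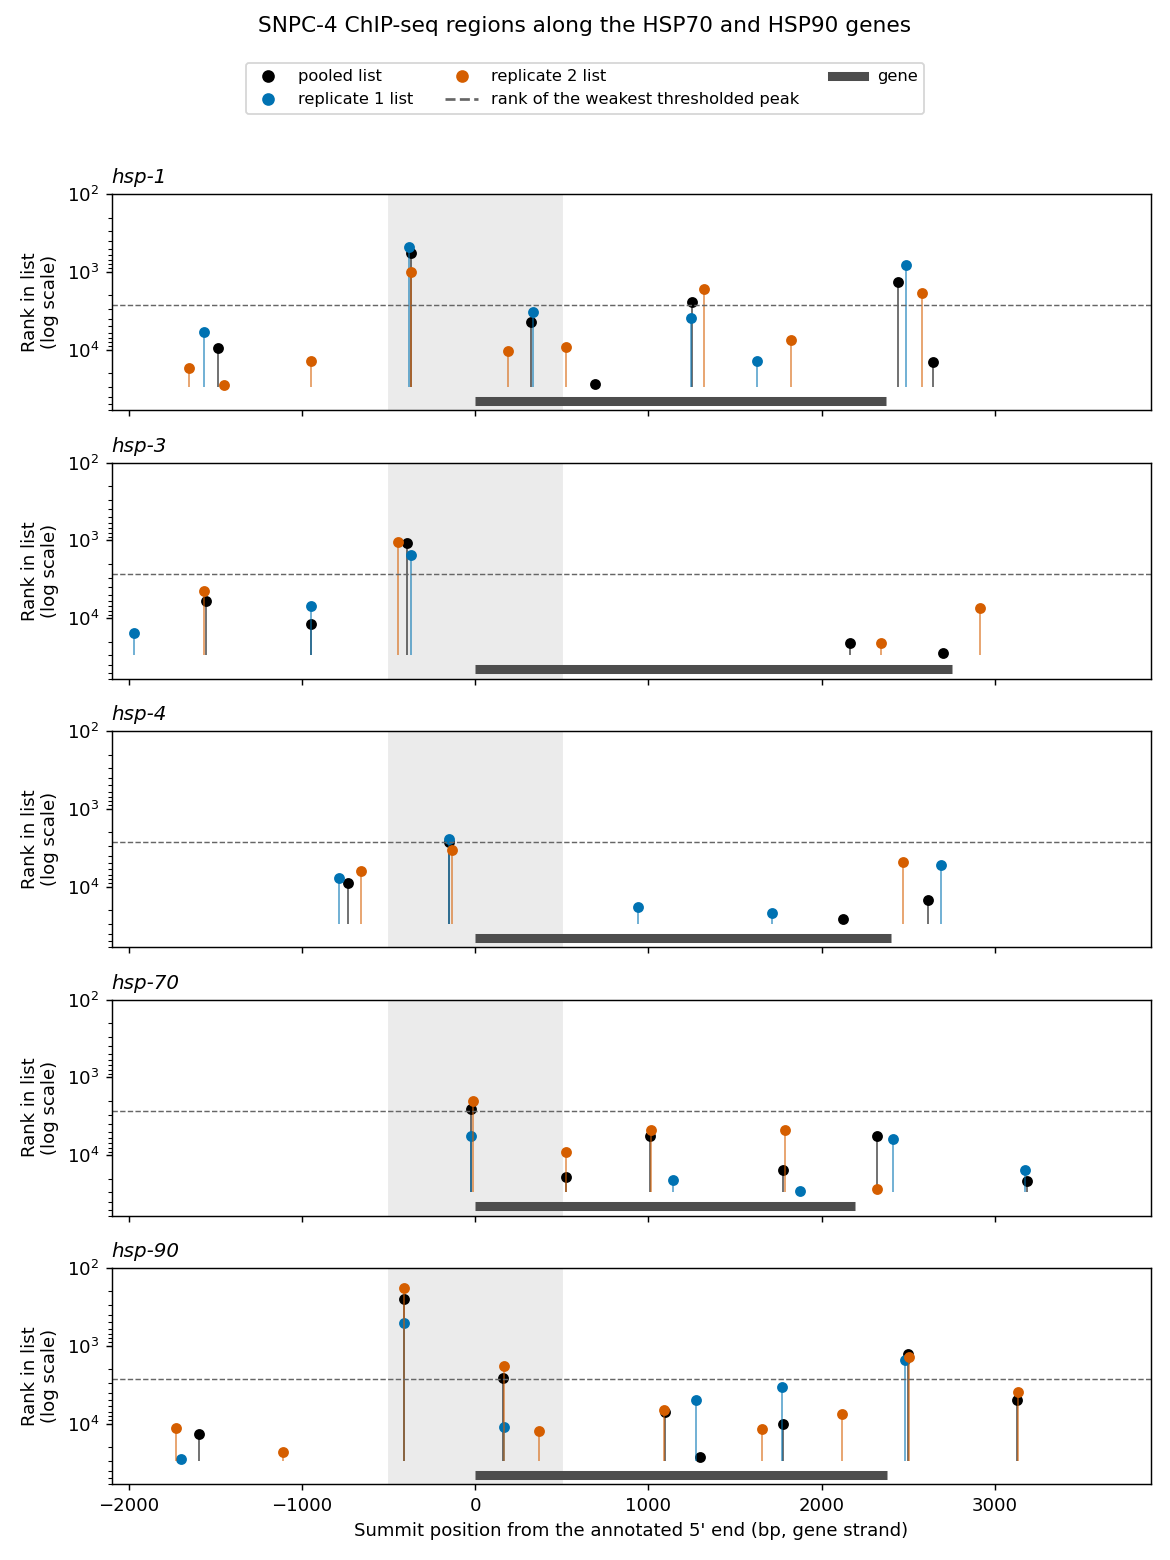
Rank of each region (log scale, strongest at the top) against the position of its summit from the annotated 5′ end in bp on the gene strand, for the pooled and both replicate lists, at the 5 genes. The shaded band is the window of 500 bp on either side, the bar is the gene and the dashed line is the rank of the weakest thresholded peak (2672). hsp-1 and hsp-90 have regions above that line both upstream of the 5′ end and just past the 3′ end.

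hsp-1 (F26D10.3, IV:17278959-17281330, plus strand, 4 exons) encodes the constitutive cytosolic HSP70, which folds newly made proteins in unstressed cells. Its strongest region was a thresholded peak of signal 75.1 and rank 564 in the thresholded and pooled lists, with the summit 373 bp upstream of the 5′ end (signed position -373). In replicate 1 the region had signal 45.3, rank 479 and its summit at -382. In replicate 2 it had signal 28.4, rank 988 and its summit at -370. It was thus far inside the thresholded number of peaks in both replicates, with summits 12 bp apart. A weaker pooled region at +325, in coding sequence, had signal 19.5 and rank 4430, and was not thresholded. The gene body held a further thresholded peak at +1252, also in coding sequence, with signal 31.1 and rank 2463. Within gene bodies, hsp-1 and, nearer to its 5′ end, hsp-90 had a thresholded summit, 2 of the 5 genes, against 2.03% of the 3691 protein-coding genes of 2000 to 3000 bp, the range that holds all 5. The nearest region in replicate 1, with its summit at +1248, ranked 3955, and that in replicate 2, at +1319, ranked 1639. The 5′ end of F26D10.24, an annotated small nucleolar RNA (snoRNA) gene of 124 bp on the same strand, lay 1087 bp into hsp-1.

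hsp-70 (C12C8.1, I:9320325-9322519, minus strand, 3 exons), the heat-induced cytosolic HSP70, had the weakest of the 4 thresholded peaks and the one closest to a 5′ end. The peak had signal 30.03 and rank 2585 in the thresholded and pooled lists, with the summit at -22. In replicate 1 its region had signal 10.97, rank 5661 and its summit at -24, outside the first 2672. In replicate 2 it had signal 18.1, rank 2038 and its summit at -15, inside them. The replicates therefore placed the region on either side of that number, at nearly the same position. Of the 1785 protein-coding genes with a thresholded peak, hsp-70 was the 1738th from the top. No other gene was annotated near it upstream, where the nearest was the tRNA gene C12C8.t5 at 4904 bp.

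hsp-3 (C15H9.6, X:6089033-6091785, minus strand, 4 exons) encodes one of the worm's pair of BiP proteins and is expressed without ER stress. It had 1 thresholded peak, with signal 53.4, rank 1083 and the summit at -392. In replicate 1 the region had signal 24.8, rank 1538 and its summit at -373, and in replicate 2 it had signal 27.6, rank 1037 and its summit at -444. Both replicates placed it within the first 2672, with summits 71 bp apart, the widest such gap among the strongest regions of the 5 genes. GC content in the 200 bases at the summit was 62.5% at hsp-3, against 36.5% to 42.5% at the other 4 genes, and against a median of 44% (quartiles 38.5% and 49%) at the 2646 nuclear thresholded summits.

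hsp-4 (F43E2.8, II:7350119-7352518, minus strand, 6 exons) encodes the BiP protein that is strongly induced by ER stress. It had no thresholded peak, and its strongest pooled region had signal 29.0688, rank 2673 and the summit at -153. The weakest thresholded peak of the genome had signal 29.0695 and rank 2672, so the hsp-4 region was the first one left out, by a signal difference of 0.00065. In replicate 1 the region had signal 18.3, rank 2456 and its summit at -153. In replicate 2 it had signal 12.4, rank 3374 and its summit at -133. The hsp-4 and hsp-70 regions were thus of about the same pooled strength on either side of the threshold, and in replicate 1 the hsp-4 region was the stronger one.

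hsp-90 (C47E8.5, V:14686160-14688539, plus strand, 4 exons), the cytosolic HSP90, had the strongest peak of the 5 genes. It had signal 115, rank 251 and the summit at -409, and 150th place among the 1785 protein-coding genes with a peak. In replicate 1 the region had signal 44.4 and rank 505, in replicate 2 signal 68.8 and rank 178, and all lists gave the same summit base. The pooled region was 107 bp wide and the replicate 2 region 73 bp, against medians of 290 bp and 284 bp in those lists, whereas the replicate 1 region had the usual 280 bp of its list. Of all thresholded peaks, 3.52% were no wider than 107 bp. A weaker thresholded peak, in an intron at +163, had signal 30.06 and rank 2581. Its region ranked 11039 in replicate 1 and 1807 in replicate 2, a 6.11-fold difference in rank, larger than at all but 3.47% of the nuclear thresholded peaks with a region in both replicates.

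Which other genes could own these peaks was read from the annotation. The strongest summit lay nearer to another gene's 5′ end at 2 of the 5 genes, hsp-1 and hsp-90, and at 19.4% of the 6942 protein-coding genes with a pooled region. Both summits were thresholded peaks, and among the 1785 protein-coding genes with such a peak the share was 32.9%. At hsp-1 the nearer end was that of F26D10.23, a noncoding RNA gene of 90 bp on the same strand, 173 bp upstream of the summit. The nearest upstream protein-coding gene of hsp-1, clec-196, ended 1210 bp away. At hsp-90 the nearer end was that of C47E8.4, a protein-coding gene transcribed in the opposite direction, whose 5′ end lay 675 bp from that of hsp-90. The summit was 266 bp from C47E8.4 and 409 bp from hsp-90, between both genes and upstream of each. With protein-coding neighbours alone, hsp-90 was the 1 such gene of the 5, against 10.3% of protein-coding genes with a pooled region. For hsp-3, hsp-4 and hsp-70 no other 5′ end lay within 1000 bp of the summit. Upstream of hsp-3 the divergent gene C15H9.5 began 1514 bp away, and upstream of hsp-4 the transporter gene haf-2, on the same strand, ended 1057 bp away.

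Longer transcripts moved some summits relative to a 5′ end. In the Ensembl annotation, 1 transcript of hsp-3 began 339 bp upstream of the RefSeq end, which put the summit at -53 from it. One transcript of hsp-4 began 127 bp upstream, which put the summit at -26. For hsp-90, 1 transcript began 1242 bp upstream, and from that end the strongest summit lay at +833. hsp-1 and hsp-70 had the same 5′ end in both annotations. The lists do not show which of these starts was used in the larvae.

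From the RefSeq ends, the summits of hsp-90, hsp-3 and hsp-1 lay between 373 and 409 bp upstream, farther than at most genes. Over the 1785 protein-coding genes with a thresholded peak the median position of the strongest summit was -184 (quartiles -281 and -113), and 10.7% had it 350 to 450 bp upstream. The summits of hsp-4 at -153 and hsp-70 at -22 lay on the near side of that median. Ribosomal protein genes, a set of highly transcribed genes given for comparison, had a thresholded peak at 59 of 78 (75.6%). Their median summit position was -291 (quartiles -370.5 and -249.5), with 30.5% at 350 to 450 bp upstream. Their median rank was 510, against 1108 for all protein-coding genes with a peak, so hsp-90 ranked above the ribosomal protein median and hsp-1 close to it.

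**Figure D2:**
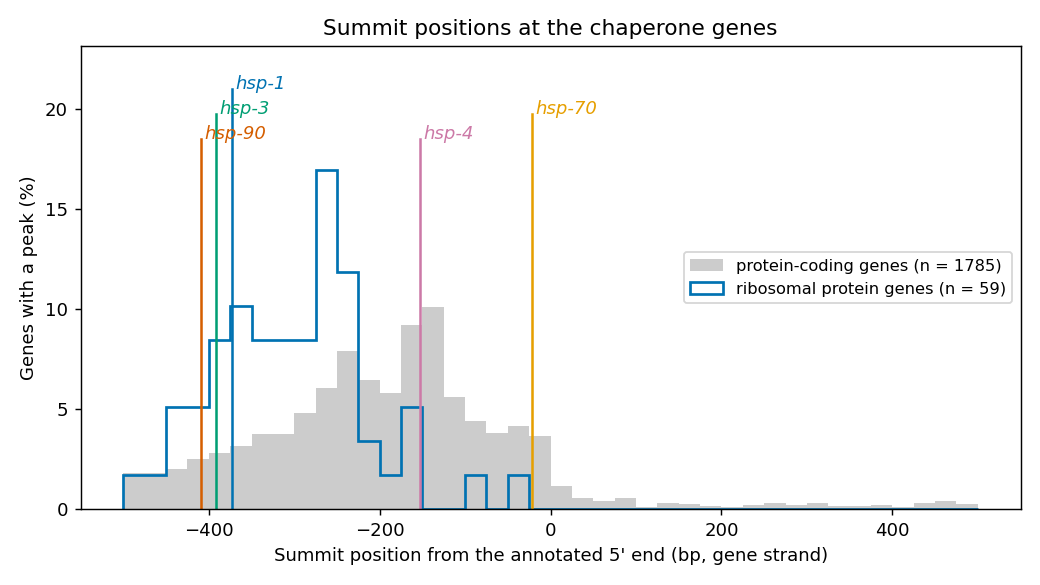
Distribution of the position of the strongest thresholded summit from the annotated 5′ end (bp, gene strand, bins of 25 bp), in percent of genes with a peak, for 1785 protein-coding genes (grey) and 59 ribosomal protein genes (blue outline). Vertical lines mark the strongest pooled summit of the 5 genes: hsp-90, hsp-3 and hsp-1 stand together at -409 to -373, hsp-4 at -153 and hsp-70 at -22.

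The replicates agreed closely on position and less closely on rank. The gap between replicate summits was 0 bp at hsp-90, 9 bp at hsp-70, 12 bp at hsp-1, 20 bp at hsp-4 and 71 bp at hsp-3, against a median of 24 bp and an upper quartile of 52 bp over nuclear thresholded peaks. Ranks differed between replicates by 2.84-fold at hsp-90, 2.78-fold at hsp-70, 2.06-fold at hsp-1, 1.48-fold at hsp-3 and 1.37-fold at hsp-4. Of the nuclear thresholded peaks with a region in both replicates, 19.2% differed by more than hsp-90, 20.02% by more than hsp-70, 35.0% by more than hsp-1, 59.1% by more than hsp-3 and 66.1% by more than hsp-4. Of all 2646 nuclear thresholded peaks, 65.8% ranked within the first 2672 of both replicate lists. In order of rank, replicate 1 placed hsp-1 (479) just before hsp-90 (505), then hsp-3, hsp-4 and hsp-70. Replicate 2 placed hsp-90 first, then hsp-1 (988) and hsp-3 (1037) close together, then hsp-70 and hsp-4. The order of hsp-1 against hsp-90, and of hsp-4 against hsp-70, was thus reversed between the replicates, while hsp-3 stayed in the middle in both.

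**Figure D3:**
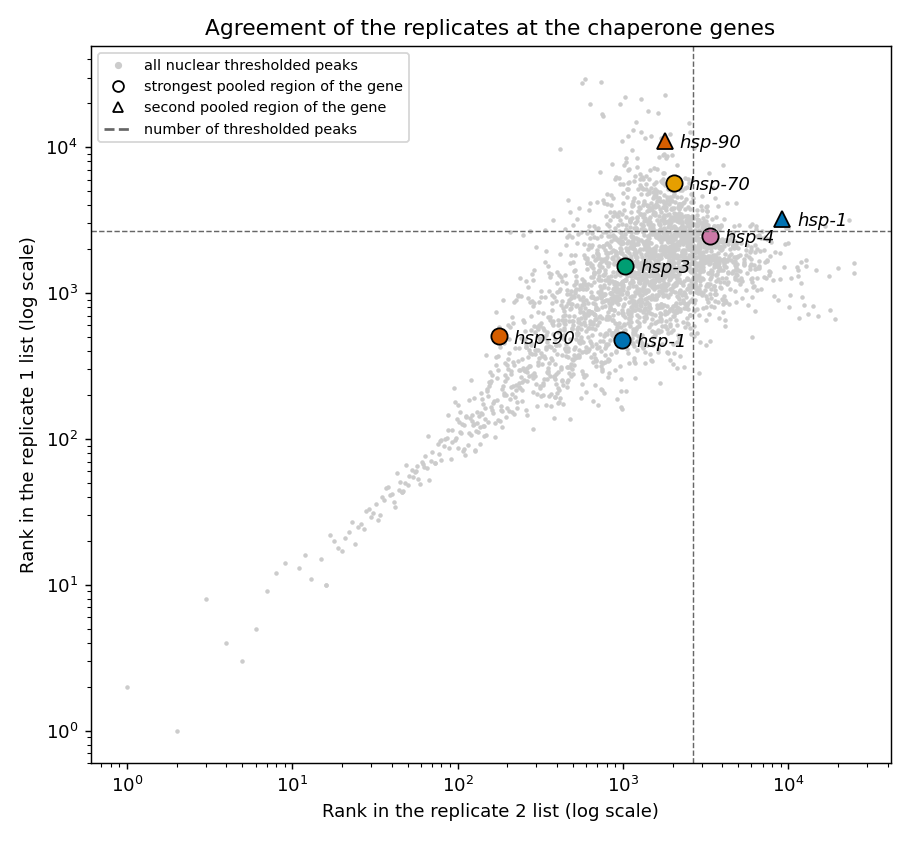
Rank in the replicate 1 list against rank in the replicate 2 list (both log scales) for the nuclear thresholded peaks (grey points) and the regions of the 5 genes (circles, strongest pooled region; triangles, weaker pooled region within 500 bp). Dashed lines mark rank 2672: hsp-90, hsp-1 and hsp-3 are inside both, hsp-70 inside replicate 2 and hsp-4 inside replicate 1.

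Regions past the 3′ ends of the genes were examined after they had been seen on the maps. hsp-1 had a thresholded peak 72 bp past its 3′ end, with signal 46.7 and rank 1364, and its region there ranked 814 in replicate 1 and 1854 in replicate 2. hsp-90 had one 118 bp past its 3′ end, with signal 48.6 and rank 1279, which ranked 1519 in replicate 1 and 1391 in replicate 2. The hsp-90 summit was 41 bp from the 5′ end of the protein-coding gene C47E8.11 and 453 bp upstream of that of gasr-8, also protein-coding. No 5′ end lay within 1000 bp of the hsp-1 summit. Thresholded summits up to 250 bp past the 3′ end were thus present at 2 of the 5 genes, against 1.33% of all protein-coding genes, 2.8% of the 1785 with a thresholded peak at the 5′ end, and 1.28% of the ribosomal protein genes.

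At the other 3 genes the regions past the 3′ end were weak. hsp-70 had a pooled region at 126 bp (rank 5647), 21 bp from the tRNA gene C12C8.t1, and hsp-4 had one at 214 bp (rank 14885) and a replicate 2 region at 69 bp (rank 4827). hsp-3 had none in the pooled list and one in replicate 2 alone, at 164 bp (rank 7393). In the pooled list 10.3% of protein-coding genes had such a region, and in the replicate 2 list 10.4%.

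Motifs were searched on both strands in promoters of 300 bases (250 before the RefSeq 5′ end to 50 after it) and in the 200 bases at the strongest summit. A match describes letters, not a bound site. The heat shock element, bound by the transcription factor HSF-1, is searched here as GAANNTTC or TTCNNGAA, which can overlap each other. It was found in the promoters of hsp-1, hsp-70 and hsp-90, and in 32.6% of all protein-coding promoters. The hsp-70 promoter held 3 matches, beginning at -180, -73 and -68, the last 2 overlapping, and hsp-90 held 1 at -6. hsp-1 held overlapping matches at -144 and -139. The same 3 genes had a match in the 200 bases at the summit, against 13.5% of nuclear thresholded summits and 22.2% of pooled ones. In the sequences above, the match of hsp-1 began at -354 and that of hsp-90 at -389, both with their centre within 25 bp of the summit. hsp-90 had a further match at -326, outside its narrow region. Upstream of both windows searched, hsp-4 had matches beginning at -335 and -299, hsp-70 at -312 and hsp-1 at -554. One Ensembl transcript of hsp-4 began 127 bp upstream of the RefSeq end. The lack of a promoter match at hsp-4 therefore depends on the 5′ end used.

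TGACGTG was found at the summits of the ER genes hsp-3 and hsp-4 and at none of the other 3 genes. The match began at -471 in hsp-3 and, as CACGTCA, at -210 in hsp-4. It was present in 3.06% of thresholded and 1.70% of pooled summit windows. The hsp-4 match also lay in the promoter window, as in 2.88% of protein-coding promoters, while that of hsp-3 lay farther upstream. An Ensembl transcript of hsp-3 began 339 bp upstream of the RefSeq end, so this difference depends on the 5′ end used. TATAAA began at -45 in hsp-70 and at -53 in hsp-90, and was present in 37.9% of promoters; the TATAAA capitalised in hsp-3 lies upstream of both windows searched.

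Other genes of the chaperone network were counted with lists of 82 annotated genes in all, the 5 genes included. Of these, 36 had a thresholded peak, and 2 of the 82, F11F1.1 and trap-1, were in lists to which their RefSeq product does not belong. Without them the count was 35 of 80, and without the 5 genes as well 31 of 75 (41.3%), beside the 8.94% of all protein-coding genes. At 17 of the 35 the strongest summit lay nearer to another gene's 5′ end, against 32.9% of the 1785 protein-coding genes with a thresholded peak. These 17 were hsp-1, hsp-90, hsp-6, hsp-110, ahsa-1, daf-41, dnj-1, dnj-13, dnj-19, fkb-6, cct-1, cct-5, cct-7, cct-8, crt-1, atf-4 and sip-1. These lists were put together with results of these data known, so the share is a description only. They do not hold every gene of their kinds. The plot of ranks by list shows where the 5 genes stand.

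**Figure D4:**
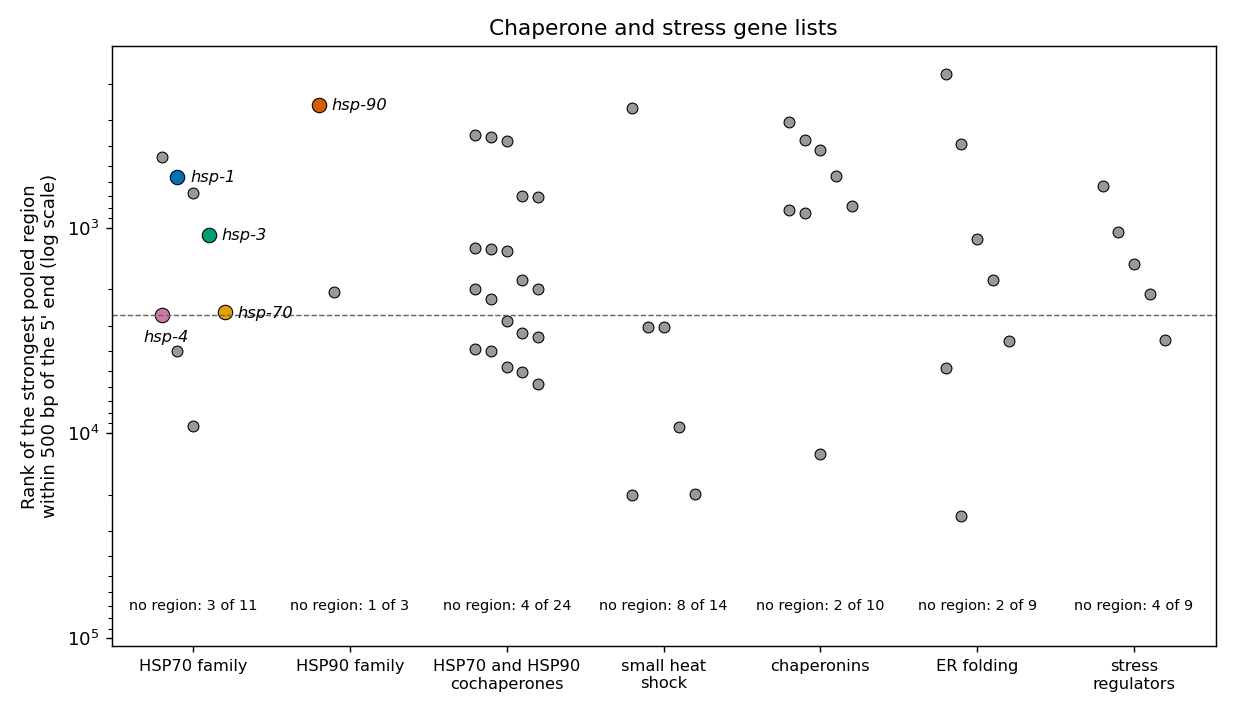
Rank of the strongest pooled region within 500 bp of the 5′ end (log scale, strongest at the top) for the genes of each list, with the 5 genes in colour and the number of genes with no pooled region at the bottom. The dashed line is the rank of the weakest thresholded peak (2672). Above it stand 7 of the 10 listed chaperonin genes and 1 of the 14 listed small heat shock genes.

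Among the 11 genes of the HSP70 family, 5 had a thresholded peak. Besides hsp-1, hsp-3 and hsp-70 these were hsp-110, an HSP70-like nucleotide exchange factor (rank 454), and hsp-6, the mitochondrial HSP70 (rank 676). Those without one were hsp-4, stc-1, T14G8.3, T24H7.2, F44E5.4 and F44E5.5. Heat-induced F44E5.4 and F44E5.5 had no pooled region in the window, unlike hsp-70. Both genes had the same weak rank in each replicate list, 9048 in replicate 1 and 20825 in replicate 2. In each of these lists 1 region was thus counted for both. Any region within the window was found at 35.6% of protein-coding genes in replicate 1 and 36.8% in replicate 2. Whether their sequence is unique in the genome was not tested. Of the 3 HSP90 genes, hsp-90 and enpl-1, the HSP90 of the ER (rank 2063, summit at +3), had a peak, and hsp-75 had no pooled region.

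The listed partners of HSP70 and HSP90 had peaks at 12 of 24 genes. The list holds only some J-domain genes. Outside it, dnj-9 (rank 205), dnj-22 (212), dnj-11 (486), dnj-14 (576) and dnj-16 (2427) had peaks, and those without one were not counted. The strongest of the 12 listed were at ahsa-1, an activator of the HSP90 ATPase (rank 353), and bag-1, a nucleotide exchange factor of HSP70 (360). Next came dnj-19, a J-domain protein (380), sti-1, which joins HSP70 and HSP90 (701), and the J-domain gene dnj-13 (710). The others were dnj-12, fkb-6, dnj-28, dnj-1, hip-1, daf-41 and dnj-10, at ranks 1262 to 2234. hsb-1, whose product binds HSF-1, had a pooled region at rank 2862. Among cytosolic and mitochondrial chaperonins 7 of 10 genes had a peak, at ranks 305 (cct-7) to 852 (cct-2): cct-1, cct-2, cct-5, cct-6, cct-7, cct-8 and Y22D7AL.10.

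Of the ER folding genes 4 of 9 had a peak: uggt-1, a sensor of glycoprotein folding (rank 179), pdi-6 and pdi-1, disulfide isomerases (392 and 1789), and crt-1, calreticulin (1135). The stress regulators xbp-1 (628), ire-1 (1048), atf-6 (1509) and atf-4 (2100) had peaks, 4 of 9 in all. Of the sensor and transcription factor genes of the unfolded protein response, xbp-1, ire-1, atf-6 and atf-4 thus ranked above hsp-4 (2673), one of its known targets. The sensor gene pek-1 ranked below hsp-4 (3541). hsf-1 had no pooled region. Of the small heat shock genes in the list, 1 of 14 had a peak, sip-1 (rank 260). hsp-16.20, named like the listed hsp-16 genes but not in the list, had a thresholded peak (rank 352, summit at -47). Other unlisted genes were not counted.

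By rank over the pooled and both replicate lists, some unrelated genes stood closest to each of the 5. The measure was the Euclidean distance of the 3 log2 ranks, over 4056 protein-coding genes with a region in all 3 lists. It was smallest for hsp-1 with pkd-2 (0.10) and mep-1 (0.12), for hsp-3 with chk-1 (0.10) and B0511.12 (0.10), and for hsp-4 with ZK1098.3 (0.08) and mrpl-36 (0.10). For hsp-70 it was smallest with pyp-1 (0.12) and dot-1.1 (0.16), and for hsp-90 with C37C3.9 and C37C3.18, which share 1 region (0.12). Among the 5 genes themselves, the closest pair was hsp-4 and hsp-70 (1.41) and the farthest hsp-70 and hsp-90 (5.99).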

How the data were processed

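ChIP-seq regions were read from the deposited narrowPeak lists on ce11. Per the deposited notes files, the thresholded list was made with the irreproducible discovery rate from both replicates, and a control alignment was an input to the lists. The control was not analysed here, and the aligner, peak caller, normalization and threshold parameters are not given in the sources. The deposited signal value is on a scale of its own in each replicate list and was compared only between the thresholded and pooled lists, which give the same regions the same values, so ranks were used otherwise. The deposited −log10 q-value was the same for all thresholded peaks and was not used to rank. The lists give no read counts, so depth is unknown and no interval is given. The 2672 thresholded peaks had the positions of the 2672 strongest pooled regions.

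Summits were placed on 46890 nuclear RefSeq genes of WBcel235 (Python 3.11.15, pandas 2.3.3), with Ensembl transcripts as an alternative chosen after seeing the data. Words of 32 bases in the strongest regions were all unique in the genome. Counting was tested on simulated summits. The members and gene lists were chosen with earlier results of these data known, and no significance test was made. Named were the 5 genes, genes with a 5′ end within 1000 bp of a counted summit, list genes with a peak, family members without one, and the 2 genes closest in rank to each of the 5. F44E5.4, stc-1 and hsp-75 fall under family members. hsb-1, hsf-1, pek-1, hsp-16.20, clec-196, C15H9.5, haf-2, C12C8.t5, C47E8.11, gasr-8 and C12C8.t1 fall outside that rule and were chosen after their values were seen. The same holds for dnj-9, dnj-11, dnj-14, dnj-16 and dnj-22.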

Additional observations from a re-analysis of the deposited data

How the results depend on the processing

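Of 38 alternatives, 31 kept their count within 1.5 times. With a window of 250 bp, 2 of the 5 genes had a thresholded peak (hsp-70 and hsp-90), as did 1163 protein-coding genes and 20 list genes, 3 of the 5 had a pooled region (22.2% of protein-coding genes) and 0, in place of 3, ranked within the first 2672 of both replicates (3.9%). In the stronger 50% of the thresholded list 1048 protein-coding genes had a peak. With protein-coding neighbours only, 1 of the 5 summits lay nearer to another 5′ end. Without replicate 1 or without replicate 2, 4 of the 5 genes ranked within the first 2672, with hsp-4 in place of hsp-70 in replicate 1 alone. Measured from Ensembl transcripts, an alternative chosen after seeing the data, 3 of the 5 genes had a peak within 250 bp, hsp-3, hsp-70 and hsp-90, against 6.38% of 19973 genes. No paired analysis was possible because there was 1 group. The unknown depth limits statements on hsp-4 and hsp-70, whose regions lie at the threshold.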
